A study of Arabidopsis thaliana with 12 samples.

Results

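Transcripts of 8 genes of the oxygen-sensing N-degron pathway were followed in rosettes of Arabidopsis thaliana: the plant cysteine oxidases PCO1 (AT5G15120), PCO2 (AT5G39890), PCO3 (AT1G18490), PCO4 (AT2G42670) and PCO5 (AT3G58670), the arginyltransferases ATE1 (AT5G05700) and ATE2 (AT3G11240), and the ubiquitin ligase PRT6 (AT5G02310). The genes were taken by identifier from a deposited table of 33208 features, and all 8 were among the 18212 features that passed the filter on low counts, PCO1 and PCO2 through the hypoxia libraries. RNA was sequenced from wild-type plants and from med25-1, 1 mutant line of MED25, a subunit of Mediator, through which transcription factors reach RNA polymerase II. Plants of both genotypes were 3 weeks old, had grown on MS plates with 0.5% sucrose under 16 h of light at 21 °C and 8 h of dark at 18 °C, and then received either control conditions or 3 h at 1% oxygen, called hypoxia below. Each of the 4 groups held 3 biological replicates, 12 libraries in all, and the labels do not say whether a replicate was 1 plant or a pool, so p-values measure the spread between these samples. The sources used here do not give the position of the med25-1 lesion.

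The pathway marks proteins that begin with methionine followed by cysteine. Methionine aminopeptidases remove the methionine, plant cysteine oxidases use molecular oxygen to oxidize the exposed cysteine, ATE enzymes join arginine to the oxidized residue, and PRT6 recognizes the arginine and passes the protein to ubiquitin-dependent degradation. When oxygen is scarce the cysteine is not oxidized and the substrates are spared, among them the group VII ethylene response factors, which switch on genes of anaerobic metabolism, including oxidase genes.

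What these enzymes act on can be read from the start of each substrate's coding sequence. The first 30 coding bases of the 5 group VII factors and of VRN2 and ZPR2, other known substrates of the pathway, are given below from the RefSeq annotation of TAIR10.1, with the codons for methionine and for the following residue in capitals.

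RAP2.12: ATGTGTggaggagctataatatccgatttc
RAP2.2: ATGTGTggaggagctataatctccgatttc
RAP2.3: ATGTGTggcggtgctattatttccgattat
HRE1: ATGTGCggaggagctgtaatttccgattac
HRE2: ATGTGTgggggagctatcatttctgatttc
VRN2: ATGTGTaggcagaattgtcgcgcgaaatcc
ZPR2: ATGTGTctgacaacttcagagccaccattc

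All 7 substrates carried a cysteine codon in the second position, TGC in HRE1 and TGT in the other 6. None of the 8 enzyme genes did.

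Libraries held 7170796 to 20501572 uniquely placed gene reads, and the shallowest was med25-1 hypoxia replicate 3. In that library the 20 most abundant genes took 8.97% of reads, against 13.4% to 15.9% in the other libraries, so calls and ranks that use it are also given without it. The tissue label was checked with leaf markers: all 5 were detected in every group, with a summed level of 54961 to 60834 CPM, the count scaled to library size, in the wild-type libraries, 47765 to 51532 in med25-1 control and 29789 to 49934 in med25-1 hypoxia. Of 4 root markers 2 or 3 were at 0 in each group and their sum was at most 2.07 CPM. All 3 flower markers were detected at low level, summing to 0.876 to 1.63 CPM in wild-type control, 0.476 to 0.650 in med25-1 control, 4.87 to 7.46 in wild-type hypoxia and 1.58 to 3.13 in med25-1 hypoxia. The sum followed PI, a gene singled out after its values were seen, with means of 0.879, 0.312, 5.66 and 1.74 CPM in these groups, while AP3 averaged 0.0920 to 0.130 CPM and AG 0.145 to 0.420 CPM. The part of these markers in the results below was not tested, and in bulk tissue fewer cells of a type and less RNA per cell cannot be told apart. MED25 transcript was detected in every library and differed between genotypes under hypoxia by -0.96 ± 0.20 on the log2 scale (SE, edgeR adjusted p = 0.0066), and by -1.14 without med25-1 hypoxia replicate 3 (edgeR adjusted p = 0.00246). Under control conditions it differed by -0.45 ± 0.20 and was not called (SE, edgeR adjusted p = 0.133).

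A gene was called at an adjusted p under 0.05 by edgeR's quasi-likelihood test, with Benjamini-Hochberg adjustment over all 18212 tested features. The first question was how the 8 genes behaved under hypoxia in wild-type plants. PCO1 rose 327-fold and PCO2 152-fold in reads per library size, from a few reads per control library, and PCO3, PCO4, PCO5, ATE1, ATE2 and PRT6 were not called. These 2 of 8 called genes compare with 6.48% of all tested features called, 3.05% risen and 3.43% fallen. The median log2 fold change of the 8 genes was 0.03, beside 0.00 over all features.

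PCO1 lies on chromosome 5 (4898641 to 4900734, plus strand, TAIR10) and encodes 1 of the cysteine oxidases known for strong induction by low oxygen. Its reads numbered 6, 5 and 7 in wild-type control and 1781, 1724 and 1892 in wild-type hypoxia. Every hypoxia library thus stood far above every control library. On the level scale this was 0.446, 0.438 and 0.372 CPM against 129, 143 and 134 CPM, and the log2 fold change was 8.32 ± 0.25 (SE, edgeR adjusted p = 4.8e-09). Because the control value rests on 18 reads, the ratio of reads per library size was also given its exact 95% counting interval, 327-fold with bounds of 207 and 552. The reads carried no molecular identifiers and copies of 1 molecule may be counted, so such intervals hold counting error alone.

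PCO2 lies on the same chromosome (15974270 to 15976270, plus strand) and encodes the closest relative of PCO1 among the 5 oxidases by coding sequence. Its reads numbered 6, 5 and 3 in wild-type control and 657, 619 and 668 in wild-type hypoxia. These groups did not overlap either. The level went from 0.446, 0.438 and 0.159 CPM to 47.6, 51.3 and 47.1 CPM, and the log2 fold change was 7.19 ± 0.32 (SE, edgeR adjusted p = 1.3e-07). The ratio of reads was 152-fold with counting bounds of 90.1 and 278.

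The second question was whether med25-1 showed the same response. Both inducible oxidases rose there too, and the other 6 genes were again not called. These 2 of 8 called genes compare with 5.28% of all features called, 1.88% risen and 3.40% fallen. The median of the 8 log2 fold changes was 0.04, beside 0.02 over all features.

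PCO1 had 3, 0 and 2 reads in the med25-1 control libraries and 1552, 2005 and 694 in med25-1 hypoxia. Its level in hypoxia was 107, 106 and 91.5 CPM, with the lowest value in replicate 3. The log2 fold change was 9.93 ± 0.29 (SE; edgeR adjusted p = 3.3e-09), and 10.00 without that replicate. The ratio of reads was 1080-fold, with counting bounds of 462 and 3328 that reflect the 5 reads of the control libraries.

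PCO2 had 3, 4 and 4 reads in med25-1 control and 363, 345 and 101 in med25-1 hypoxia. Its level reached 25.0, 18.3 and 13.3 CPM under hypoxia, again lowest in replicate 3 and in all 3 libraries far above the controls. The log2 fold change was 6.43 ± 0.33 (SE; edgeR adjusted p = 6.0e-07), and 6.62 without replicate 3. The ratio of reads was 93.4-fold, with counting bounds of 51.9 and 188.

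**Figure D1:**
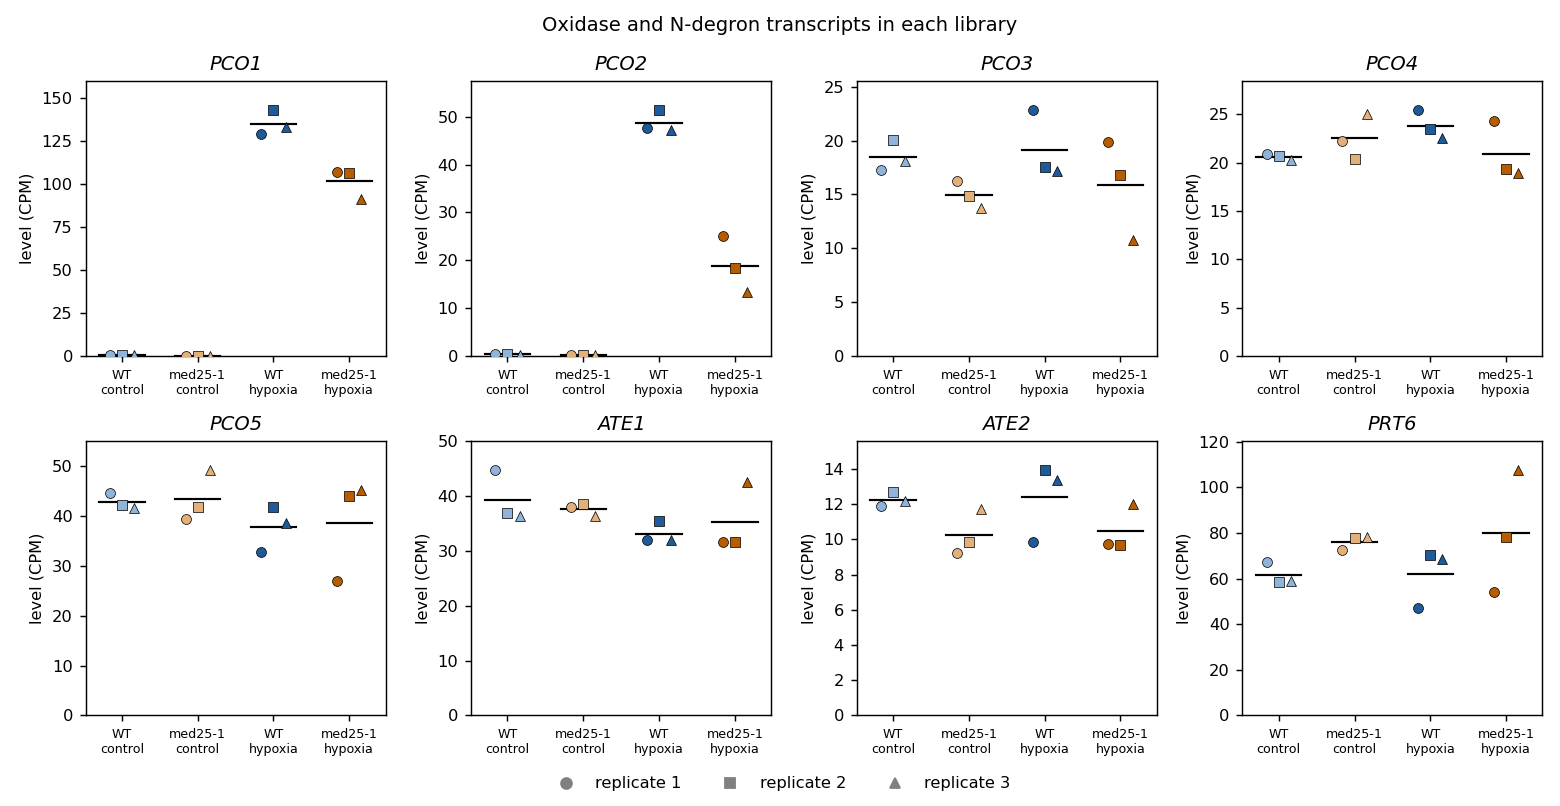
Level of each of the 8 genes in CPM (vertical axis, linear from 0, scaled for each gene) in the 4 groups, with 1 symbol per library and a bar at the group mean (n = 3). PCO1 and PCO2 lie near 0 in all 6 control libraries and high in all 6 hypoxia libraries, while the other 6 genes were detected in every library and none was called for hypoxia.

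The plot of levels by library sets these inducible genes beside the rest of the pathway. PCO3 (chromosome 1, 6366520 to 6368879) stood at 17.2, 20.1 and 18.1 CPM in wild-type control and at 22.8, 17.6 and 17.2 CPM in wild-type hypoxia. In med25-1 it stood at 16.3, 14.8 and 13.7 CPM in control and at 19.9, 16.8 and 10.8 CPM in hypoxia, so that control and hypoxia overlapped in both genotypes. The log2 fold changes under hypoxia were 0.06 ± 0.20 in wild type and 0.10 ± 0.20 in med25-1 (SE; edgeR adjusted p = 0.933 and 0.799).

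PCO4 (chromosome 2, 17771697 to 17774647, minus strand) and PCO5 (chromosome 3, 21703385 to 21706137, minus strand), a pair with the most similar coding sequences of the family, are the oxidases known for expression in air. PCO4 stood at 20.9, 20.7 and 20.3 CPM in wild-type control and at 25.4, 23.5 and 22.5 CPM in wild-type hypoxia. These libraries did not overlap, but the log2 difference of 0.21 ± 0.13 (SE) was not called (edgeR adjusted p = 0.449). In the authors' deposited table the same comparison has a fold change of 1.16 with an FDR corrected p of 0.0393 by Baggerley's test. Per the column headers that test used normalized values, here and below, and not the scaled counts given to edgeR. In med25-1 the PCO4 libraries overlapped, at 22.3, 20.4 and 25.0 CPM in control and 24.3, 19.4 and 19.0 CPM in hypoxia, a log2 difference of -0.11 ± 0.13 (SE; edgeR adjusted p = 0.642).

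PCO5 was the most abundant oxidase transcript of the control plants. Its level was 44.5, 42.2 and 41.6 CPM in wild-type control and at 32.8, 41.8 and 38.5 CPM in wild-type hypoxia. In med25-1 it stood at 39.4, 41.7 and 49.1 CPM in control and at 26.9, 43.9 and 45.1 CPM in hypoxia. Control and hypoxia overlapped in both genotypes, with log2 differences of -0.18 ± 0.18 and -0.17 ± 0.18 (SE; edgeR adjusted p = 0.684 and 0.597).

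The enzymes downstream of the oxidases were not called under hypoxia in either genotype. ATE1 (chromosome 5, 1712670 to 1715731, minus strand) stood at 44.7, 36.9 and 36.4 CPM in wild-type control and at 32.0, 35.5 and 31.9 CPM in wild-type hypoxia, without overlap between the groups. Its log2 difference of -0.25 ± 0.14 (SE) was not called (edgeR adjusted p = 0.386). In med25-1 the ATE1 libraries overlapped, with 36.3 to 38.6 CPM in control and 31.7 to 42.6 CPM in hypoxia.

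ATE2 (chromosome 3, 3518472 to 3521188, minus strand), the less abundant of the arginyltransferase transcripts, ranged from 11.9 to 12.7 CPM in wild-type control and from 9.85 to 13.9 CPM in wild-type hypoxia. In med25-1 it ranged from 9.25 to 11.7 CPM in control and from 9.66 to 12 CPM in hypoxia. The log2 differences were 0.01 ± 0.16 in wild type and 0.02 ± 0.17 in med25-1 (SE; edgeR adjusted p = 0.982 and 0.971).

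PRT6 (chromosome 5, 473868 to 482942, plus strand) is the ligase that binds the arginylated end. Its level was 67.1, 58.7 and 59.1 CPM in wild-type control and at 47.3, 70.3 and 68.7 CPM in wild-type hypoxia. In med25-1 it stood at 72.7, 77.7 and 78.3 CPM in control and at 54.3, 78.1 and 108 CPM in hypoxia, where replicate 3 was the highest of the 12 libraries. The log2 differences were 0.01 ± 0.22 and 0.07 ± 0.22 (SE; edgeR adjusted p = 0.990 and 0.888), and the second was -0.20 without replicate 3.

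**Figure D2:**
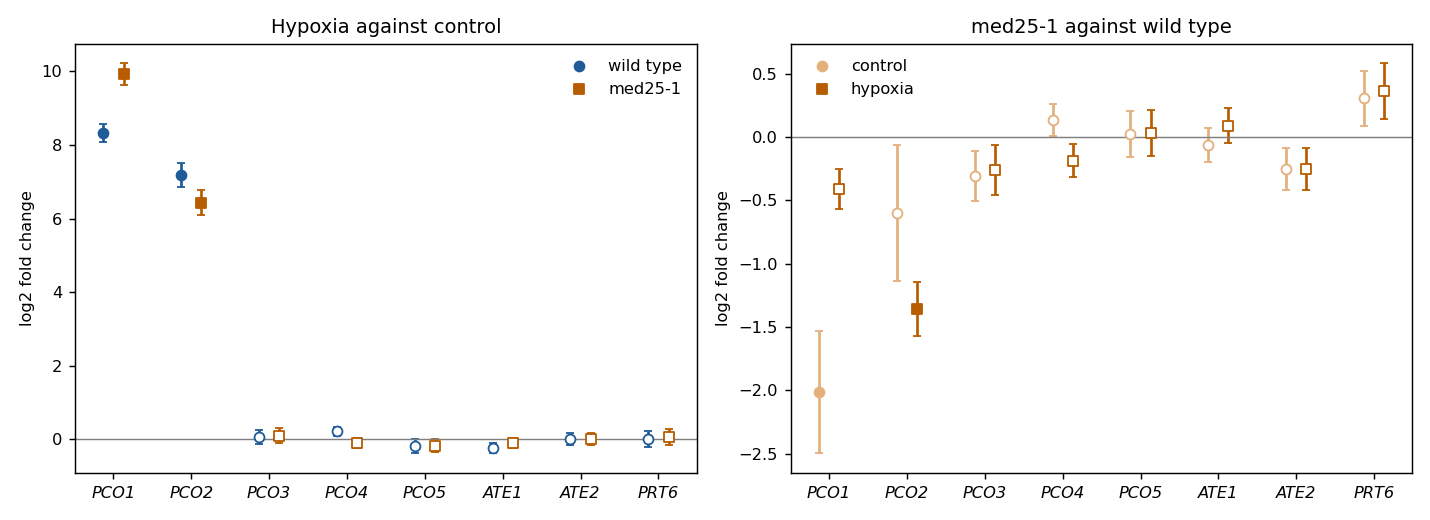
Log2 fold change of each gene with its standard error, hypoxia against control on the left and med25-1 against wild type on the right, the vertical scales differing between panels. Filled symbols were called at an edgeR adjusted p under 0.05 and open symbols were not: PCO1 and PCO2 are filled on the left in both genotypes, and on the right PCO1 is filled under control conditions and PCO2 under hypoxia.

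The third question was how the lines differed under control conditions, where 1 of the 8 genes, PCO1, was lower in med25-1. Over all features 17.1% were called, 8.13% lower in med25-1 and 8.98% higher, and no member was higher. The median of the 8 log2 differences was -0.16, beside -0.02 over all features. PCO1 differed by -2.01 ± 0.48 (SE; edgeR adjusted p = 0.0166), which rests on 18 reads in the wild-type libraries and 5 in the med25-1 libraries. The 6 libraries did not overlap, but the call was lost without med25-1 control replicate 2, at -1.56 and an edgeR adjusted p of 0.0951, and without replicate 3, at -2.04 and 0.0540. Over the 19 alternatives that gave a value the edgeR, DESeq2 or limma adjusted p ran from 0.0104 to 0.0951. With only the 2 control groups in the fit PCO1 and PCO2 did not pass the filter on low counts, so neither was tested, and of the other 6 members PRT6 was called. PCO2, with 14 reads against 11, differed by -0.60 ± 0.54 (SE; edgeR adjusted p = 0.489), and its libraries overlapped.

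The share of all features whose libraries separated between the genotypes was not counted. Among the genes expressed in air, PCO3 was lower and PRT6 higher in each med25-1 control library than in any wild-type control library, and ATE2 was lower in each. None of these differences was called in the fit over all libraries: PCO3 stood at -0.31 ± 0.20, ATE2 at -0.25 ± 0.16 and PRT6 at 0.31 ± 0.22 on the log2 scale (SE; edgeR adjusted p = 0.315, 0.317 and 0.361). ATE2 was called with limma voom, at -0.33 and an adjusted p of 0.0388, and PRT6 with only the 2 groups compared, at 0.31 and an edgeR adjusted p of 0.0333. In the authors' deposited table PCO3 has a signed fold change of -1.26 (FDR corrected p = 0.00466) and PRT6 one of 1.19 (FDR corrected p = 1.5e-06) for the same comparison. PCO4, PCO5 and ATE1 overlapped between the genotypes, with log2 differences from -0.06 to 0.13.

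Under hypoxia 1 of the 8 genes, PCO2, was lower in med25-1 than in wild type. Over all features 21.6% were called, 9.62% lower in med25-1 and 12% higher, and the median of the 8 log2 differences was -0.22, beside -0.05 over all features. PCO2 averaged 48.7 ± 2.29 CPM in wild type and 18.9 ± 5.87 CPM in med25-1 (SD, n = 3), without overlap. The log2 difference was -1.36 ± 0.21 (SE; edgeR adjusted p = 0.00137), it was called under every alternative tried, and it stood at -1.17 without med25-1 hypoxia replicate 3 (edgeR adjusted p = 0.0012). In the authors' deposited table this comparison has a signed fold change of -2.63 (FDR corrected p = 3.7e-15).

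PCO1 also stood lower in every med25-1 hypoxia library than in any wild-type one, at a mean of 102 ± 8.78 against 135 ± 7.11 CPM (SD, n = 3). Its log2 difference of -0.41 ± 0.16 (SE) missed the threshold in edgeR (adjusted p = 0.0799) and passed it in DESeq2, at -0.38 and an adjusted p of 0.0198. It also passed in limma voom with sample weights, at -0.36 and an adjusted p of 0.0386. Without med25-1 hypoxia replicate 3 it stood at -0.34 (edgeR adjusted p = 0.146). The authors' deposited table gives -1.36 as its signed fold change (FDR corrected p = 9.1e-04). The other 6 genes overlapped between genotypes under hypoxia, and of these ATE2 was called with limma voom, at -0.42 and an adjusted p of 0.0471. PRT6 had the largest log2 difference of these, 0.36 ± 0.22 (SE; edgeR adjusted p = 0.254), stood at 0.10 without med25-1 hypoxia replicate 3, and was called at 0.58 without replicate 1 (edgeR adjusted p = 0.0385).

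PCO1 and PCO2 were compared directly within each hypoxia library, a measure chosen after the values were seen. In wild type there were 0.369, 0.359 and 0.353 PCO2 reads per PCO1 read, and in med25-1 0.234, 0.172 and 0.146. The wild-type libraries were nearly alike, and all 3 med25-1 libraries lay below them. The means were 0.360 ± 0.00799 and 0.184 ± 0.0453 (SD, n = 3), a log2 difference of -1.0. An exact two-sided permutation test gave p = 0.1, the smallest that 3 against 3 libraries allow. The log2 difference ran from -1.19 to -0.84 when each library was left out in turn.

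Whether the hypoxia response itself differed between genotypes was tested with the interaction term. It was called for 0 of the 8 genes, and edgeR called 0 of the 18212 features (0%), with 910 at an unadjusted p under 0.05. DESeq2 called 16 features and limma voom 0. For PCO1 the response of med25-1 minus that of wild type was 1.60 ± 0.51 (SE; unadjusted p = 0.00963, edgeR adjusted p = 0.929). Its control groups held 5 reads in med25-1 and 18 in wild type. For PCO2 it was -0.76 ± 0.61 (SE; edgeR adjusted p = 0.947).

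Levels of different genes were compared per length, as the RPKM values deposited by the authors. In wild-type control PCO5 led at 25.3 ± 0.544 RPKM (SD, n = 3), followed by ATE1 at 15.2 ± 1.47. PCO3 at 10.0 ± 1.10 and PCO4 at 9.30 ± 0.333 overlapped, PRT6 followed at 8.35 ± 0.409 and ATE2 at 4.76 ± 0.305. PCO1 and PCO2 came last at 0.268 ± 0.0260 and 0.228 ± 0.107, and did not differ beyond their spread. In med25-1 control the order was alike, save that PRT6 at 10.6 ± 0.323 and PCO4 at 10.5 ± 0.863 overlapped above PCO3, and PCO1 at 0.0600 ± 0.0580 lay below PCO2 at 0.145 ± 0.0353. This last order rests on 5 reads of PCO1 and 11 of PCO2, and in replicate 1 their reads were equal.

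After 3 h of hypoxia PCO1 held the first place. In wild type it reached 80.7 ± 1.15 RPKM and PCO2 29.3 ± 0.629, both above PCO5 at 22.0 ± 1.93 and ATE1 at 12.7 ± 0.386 (SD, n = 3), with no overlap among these 4. In med25-1 PCO1 led at 66.5 ± 4.11, but PCO5 at 24.5 ± 6.66 now had the second mean. The PCO5 libraries overlapped with ATE1 at 14.7 ± 2.89, and those of ATE1 with PCO2 at 12.5 ± 4.00. The PCO2 libraries also overlapped with PRT6 at 11.7 ± 4.07. Without replicate 3 of med25-1 hypoxia the means of PCO1, PCO5, PCO2 and ATE1 were 68.9, 22.2, 14.4 and 13.1 RPKM, so that the order of PCO2 and ATE1 turned.

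**Figure D3:**
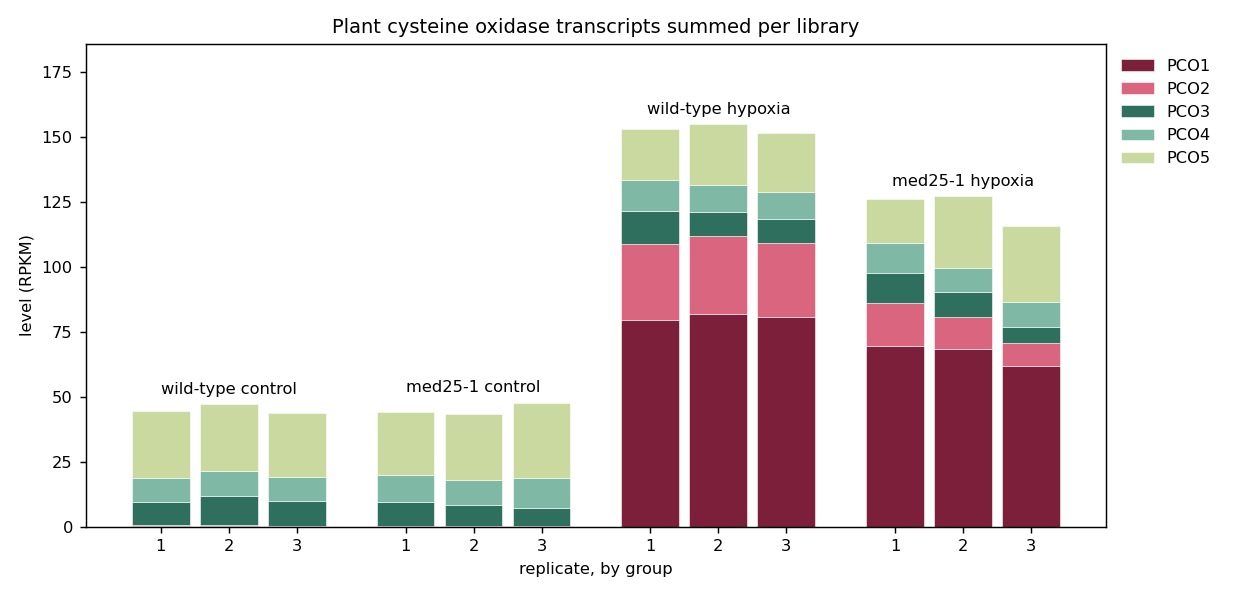
Deposited RPKM of the 5 oxidases stacked for each of the 12 libraries (vertical axis, RPKM from 0; horizontal axis, replicates by group). The total lies at 43.5 to 47.7 RPKM in the control libraries and at 116 to 155 RPKM under hypoxia, where the PCO1 and PCO2 parts are added to a PCO3, PCO4 and PCO5 part that stays at 40.1 to 47.5 RPKM.

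The plot of summed oxidase transcripts shows what this did to the family as a whole. The summed level was 45.1 ± 1.79 RPKM in wild-type control, 45.2 ± 2.22 in med25-1 control, 153 ± 1.67 in wild-type hypoxia and 123 ± 6.39 in med25-1 hypoxia (SD, n = 3). The constitutive PCO3, PCO4 and PCO5 together gave 44.6, 45.0, 43.0 and 43.9 RPKM in these groups. PCO1 and PCO2 made up 1.09% ± 0.270 of the sum in wild-type control, 0.454% ± 0.0655 in med25-1 control, 71.9% ± 0.625 in wild-type hypoxia and 64.2% ± 3.66 in med25-1 hypoxia.

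The 4 comparisons of these sums and shares used exact two-sided permutation tests within the other factor (400 arrangements, smallest p 0.005), with Benjamini-Hochberg adjustment over the 4. Hypoxia raised the summed level 3.04-fold (exact permutation p = 0.005, adjusted p = 0.00667), 3.39-fold within wild type and 2.72-fold within med25-1. It raised the share of PCO1 and PCO2 by 67.3 percentage points (exact permutation p = 0.005, adjusted p = 0.00667), and every hypoxia library exceeded every control library on both measures. Both genes had already been called for hypoxia in each genotype. The tests of hypoxia on sum and share therefore restate that rise and give no separate support. The share was lower in med25-1 than in wild type, by an average difference of -4.15 percentage points (exact permutation p = 0.005, adjusted p = 0.00667). It was -0.64 points within control and -7.66 within hypoxia, without overlap in either, and the adjusted p rose to between 0.0733 and 0.085 when any 1 wild-type hypoxia library was left out. Without med25-1 hypoxia replicate 3 it was -3.37 points (exact permutation, adjusted p = 0.00667). This test of the share uses the PCO1 and PCO2 values already compared between genotypes, so it gives no separate support either. The summed level of med25-1 was 0.896 of that of wild type, which missed the threshold (exact permutation p = 0.055, adjusted p = 0.055), with ratios of 1.00 within control and 0.803 within hypoxia. It passed in 4 of 15 alternatives, all but 1 of which left out a control library, and over the 15 the adjusted p of the exact permutation test ran from 0.025 to 0.28.

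Reads in introns gave a further view of the induced genes. Under hypoxia 307 of 5397 PCO1 reads in wild type fell in introns, 5.69% with an exact Clopper-Pearson 95% interval of 5.09% to 6.34%, and in med25-1 4.92% did (4.29% to 5.61%). For PCO2 these shares were 7.30% (6.19% to 8.55%) in wild type and 5.32% (3.87% to 7.09%) in med25-1. Without med25-1 hypoxia replicate 3 the med25-1 shares were 5.20% for PCO1 and 4.94% for PCO2. In the same libraries the other 6 genes had intron shares of 0.195% to 1.47%, and all features together 1.60% to 2.53% per library. Other genes that rose, described below, had lower observed shares than PCO1 and PCO2 in wild-type hypoxia, without scaling to intron length. Their intron reads were 66 of 6894 in ADH1, 6 of 1564 in PDC1, 461 of 15381 in HB1 and 162 of 16998 in LBD41. HRA1 had 2 of 14827, SUS4 0 of 54 and HRU1 157 of 5046. The 54 reads of SUS4 are too few to place its share below those of the oxidases. The span of a gene minus its exon length is 656 bases in PCO1 and 596 in PCO2. In the other 6 members it runs from 345 in ATE2 to 2306 in PRT6, with 1206 in PCO5. Among the other genes that rose it is 568 in ADH1, 334 in PDC1, 258 in HB1 and 112 in LBD41. It is 2147 in SUS4 and 460 in HRU1. HRA1 is annotated with 1 exon and has 0 such bases, so its share was bound to lie near 0. A high share per intron base in PCO1 and PCO2 was therefore not shown.

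**Figure D4:**
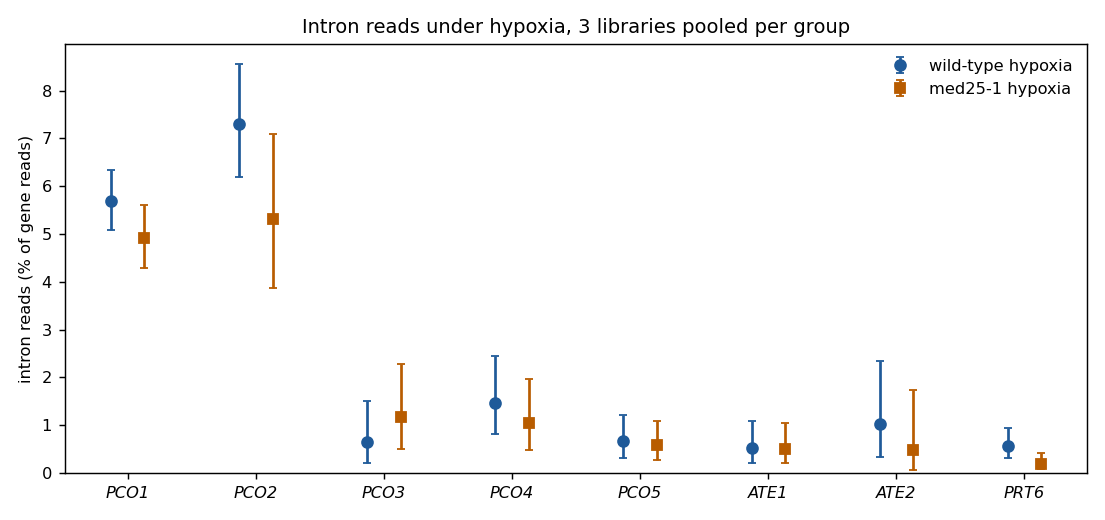
Share of gene reads placed in introns (vertical axis, percent) for the 8 genes under hypoxia, with reads of 3 libraries pooled per group and exact 95% counting intervals as bars. PCO1 and PCO2 stand between 4.92% and 7.30% in both genotypes, above the other 6 genes, whose shares are 1.47% or less.

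As the plot of intron reads shows, the shares of the 2 genotypes overlapped in their intervals for both PCO1 and PCO2. In control libraries no intron read was seen in either gene, but with 18 and 14 reads in wild type, and 5 and 11 in med25-1, a count of 0 allows, with 3 reads of each total as the floor, shares of up to 16.7% and 21.4% in wild type, and 60.0% and 27.3% in med25-1. The upper bounds of the exact intervals were 18.5%, 23.2%, 52.2% and 28.5%. A change of the intron share of these genes with hypoxia was therefore not detectable at this depth.

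The promoters of the induced genes are shown with that of PCO4, an oxidase that was not called, since PCO1 and PCO2 rose together. Each line gives the 250 bases before the annotated start on the gene's own strand, with capitals for matches to AAACCA, the core of the anaerobic response element, to ATCTA, an element bound by RAP2.2, to the GCC box GCCGCC and to the G box CACGTG, all searched on both strands. Sequences are from TAIR10.1, chr5:4898391-4898640 (plus strand) for PCO1, chr5:15974020-15974269 (plus strand) for PCO2 and chr2:17774648-17774897 (minus strand) for PCO4.

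PCO1: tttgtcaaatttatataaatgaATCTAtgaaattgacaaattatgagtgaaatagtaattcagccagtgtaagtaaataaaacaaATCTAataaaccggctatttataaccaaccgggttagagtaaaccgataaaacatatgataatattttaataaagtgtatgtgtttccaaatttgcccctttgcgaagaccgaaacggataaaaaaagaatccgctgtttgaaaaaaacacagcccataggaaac
PCO2: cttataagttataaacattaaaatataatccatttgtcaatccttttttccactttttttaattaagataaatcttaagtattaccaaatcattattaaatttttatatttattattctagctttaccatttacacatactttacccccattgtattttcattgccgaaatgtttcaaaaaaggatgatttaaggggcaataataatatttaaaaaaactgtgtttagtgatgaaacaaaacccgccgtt
PCO4: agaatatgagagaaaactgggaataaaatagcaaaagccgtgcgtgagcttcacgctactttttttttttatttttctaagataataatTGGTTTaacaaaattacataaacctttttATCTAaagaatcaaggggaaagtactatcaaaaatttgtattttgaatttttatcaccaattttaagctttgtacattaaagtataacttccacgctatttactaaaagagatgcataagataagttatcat

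PCO1 held ATCTA at -228 to -224 and at -165 to -161 from the start, and PCO2 held none of the 4 motifs in this window. PCO4 held AAACCA on the opposite strand at -161 to -156, which reads TGGTTT on the strand shown, and ATCTA at -132 to -128. Of the other members ATE2 alone had a match, with ATCTA 3 times. In 27443 promoters of the same length ATCTA was found in 49.2%, AAACCA in 27.3%, CACGTG in 6.49% and GCCGCC in 1.87%.

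Coding sequences were aligned to see how members of the family differ. PCO4 and PCO5 shared 78.8% of aligned bases, ATE1 and ATE2 78.4%, and PCO1 and PCO2 68.3%, while the other 8 pairs of oxidases shared 60.2% to 67.3%. No read of any of the 8 genes was placed at more than 1 locus, and the counts used are of uniquely placed reads.

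Features whose profile over the 12 libraries was closest to that of PCO1 or PCO2 were found by the root mean square difference of log2 CPM (prior count 2), each centred on its own mean. For PCO1 the closest 5 were FTM1 (AT1G43800), a stearoyl-acyl carrier protein desaturase also named SAD6, at 0.71, HRA1 (AT3G10040), which encodes an attenuator of RAP2.12, at 0.97, AT2G17850 at 0.97, the phytoglobin gene HB1 (AT2G16060) at 0.99 and AT4G10265 at 1.02. For PCO2 they were AT2G17850 at 0.55, HRA1 at 0.61, LBD41 (AT3G02550), a LOB domain factor, at 0.61, AT4G33560 at 0.62 and the pyruvate decarboxylase gene PDC1 (AT4G33070) at 0.71. PCO1 and PCO2 themselves lay 1.26 apart, which placed PCO2 sixth from PCO1 and PCO1 at rank 20 from PCO2. HRA1 and AT2G17850 were thus near both oxidases by this measure, in which the prior count narrows differences among genes with few reads. AT2G17850 had 0 reads in each control group. Its log2 fold changes under hypoxia were 11.47 in wild type and 10.66 in med25-1, beside 7.19 and 6.43 for PCO2. FTM1 had 1 read in each control group and log2 fold changes of 11.46 and 10.44, beside 8.32 and 9.93 for PCO1. Fold changes from 0 or 1 control reads have no firm size, and do not rank these genes above the oxidases.

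The substrates were described as the 5 group VII factors, of which 1 rose and 1 fell under hypoxia in each genotype. Over all features 3.05% rose and 3.43% fell in wild type, and 1.88% rose and 3.40% fell in med25-1. RAP2.12 (AT1G53910) and RAP2.2 (AT3G14230), transcribed in air and known as activators of hypoxia genes, were not called in any comparison, with log2 differences from -0.26 to 0.12. HRE2 (AT2G47520) was seen with 0, 0 and 1 reads in wild-type control and 84, 62 and 115 in wild-type hypoxia, and with 0, 1 and 1 against 51, 53 and 13 in med25-1. The ratio of reads was 285-fold in wild type (counting bounds 50.7 and 11291) and 74.3-fold in med25-1 (20.1 and 621), where the log2 fold change without hypoxia replicate 3 was 6.08 (edgeR adjusted p = 9.2e-05). HRE1 (AT1G72360), with 4.09 to 14.2 CPM, was not called in any comparison.

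RAP2.3 (AT3G16770) went the other way. It fell by 1.15 ± 0.25 on the log2 scale in wild type (SE; edgeR adjusted p = 0.0159) and by 1.63 ± 0.25 in med25-1 (edgeR adjusted p = 0.0033), where it stood at -1.50 without replicate 3 of hypoxia (edgeR adjusted p = 0.0093). The first call was lost without replicate 1 of wild-type control and without replicates 1 or 3 of wild-type hypoxia, at an edgeR adjusted p of up to 0.0813. Under hypoxia RAP2.3 and HRE2 were both lower in med25-1, at -0.92 ± 0.25 and -1.23 ± 0.34 (SE; edgeR adjusted p = 0.0212 and 0.0223). Without med25-1 hypoxia replicate 3 both missed the threshold, at -0.79 and -1.03 (edgeR adjusted p = 0.0673 and 0.0564), while PCO2 was still called. RAP2.3 also missed it without wild-type hypoxia replicate 2, at -0.73 (edgeR adjusted p = 0.0821), and with only the 2 groups compared, at -0.90 (edgeR adjusted p = 0.0522), and HRE2 without wild-type hypoxia replicate 1 or 3, at -1.28 and -1.04 (edgeR adjusted p = 0.0507 and 0.103). The median log2 change of the 5 factors was 0.12 under hypoxia in wild type and -0.21 in med25-1, and that between genotypes under hypoxia was -0.48.

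VRN2 (AT4G16845), a Polycomb subunit, was not called in any comparison, with group means of 20.6 to 27.7 CPM. ZPR2 (AT3G60890), a small zipper protein of the shoot apex, had 5 reads over the wild-type control libraries and 0 over the wild-type hypoxia libraries, and did not pass the filter on low counts.

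Of 6 methionine aminopeptidases, which act before the oxidases, 0 were called under hypoxia in either genotype. MAP2A came nearest, at log2 fold changes of 0.58 ± 0.16 in wild type and in med25-1 (SE; edgeR adjusted p = 0.0552 and 0.0571). Its control and hypoxia libraries did not overlap in either genotype. Over all features 6.48% were called in wild type and 5.28% in med25-1, so a count of 0 of 6 lies near that share. Between genotypes 3 of the 6 were called under control conditions, where 17.1% of all features were, and 2 of the 6 under hypoxia, where 21.6% were. Under control conditions MAP2A (AT2G44180), of the cytosol, was higher in med25-1 at 0.73 ± 0.16 on the log2 scale, and MAP1B (AT1G13270) and MAP1D (AT4G37040), of the organelles, were lower at -0.78 ± 0.17 and -0.53 ± 0.17 (SE; edgeR adjusted p = 0.0111, 0.00929 and 0.0493). Under hypoxia MAP2A stood at 0.73 ± 0.16 and MAP1B at -1.22 ± 0.17 (SE; edgeR adjusted p = 0.00853 and 6.5e-04), while MAP1D was not called, and without med25-1 hypoxia replicate 3 they stood at 0.63 and -1.04 (edgeR adjusted p = 0.022 and 2.2e-04). The MAP1D call was lost in 12 of 20 alternatives, and that of MAP2A under control conditions without wild-type control replicate 2 (edgeR adjusted p = 0.0506). MAP1A, MAP1C and MAP2B were not called.

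Among 6 other N-degron enzymes, PRT1 (AT3G24800), a ligase for other N-terminal residues, was called between genotypes, 1 of 6 in each condition beside 17.1% and 21.6% of all features. It was lower in med25-1, at -0.66 ± 0.19 under control conditions and -1.05 ± 0.19 under hypoxia on the log2 scale (SE; edgeR adjusted p = 0.0331 and 0.00317), and was not called for hypoxia in either genotype. The first of these calls was lost without any 1 of the wild-type control libraries, or without med25-1 control replicate 1 or 2 (edgeR adjusted p up to 0.114), and without med25-1 hypoxia replicate 3 the second stood at -0.89 (edgeR adjusted p = 0.00602). The amidases NTAQ1 and NTAN1, BIG, and the conjugating enzymes UBC1 and UBC2 were not called.

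Downstream of the group VII factors, the 7 target genes ADH1, PDC1, HB1, LBD41, HRA1, SUS4 and HRU1 rose in both genotypes, as PCO1 and PCO2 did (the SUS4 call being lost in 5 of 20 alternatives in wild type and 3 of 20 in med25-1), with a median log2 change of 5.90 in wild type and 5.64 in med25-1. Both oxidase values lay above these medians. Of all features 3.05% rose in wild type and 1.88% in med25-1. Without med25-1 hypoxia replicate 3 all 7 were still called in med25-1. Between genotypes under hypoxia 1 of the 7 was called, PDC1, at -1.47 ± 0.45 (SE; edgeR adjusted p = 0.036), beside 21.6% of all features. HB1 was higher in every med25-1 hypoxia library than in any wild-type one, with means of 572 and 384 CPM, but its log2 difference of 0.57 ± 0.20 (SE) was not called (edgeR adjusted p = 0.0616). That PDC1 call was lost in 6 of 20 alternatives, among them without wild-type hypoxia replicate 2, at -0.90 and an edgeR adjusted p of 0.177, and without med25-1 hypoxia replicate 3, at -1.15 and 0.0837. It was also lost without wild-type control replicate 3, wild-type hypoxia replicate 3 or med25-1 hypoxia replicate 2, at edgeR adjusted p from 0.0506 to 0.0648.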

How the data were processed

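Libraries were made from rosette RNA with a stranded mRNA kit, per the labels' protocols, and groups and replicate numbers come from the titles and treatment labels. The deposited table gives, per the file headers, counts of uniquely placed and total gene, exon, intron and junction reads for each library, and its expression values equalled the uniquely placed gene reads for 100% of entries. The authors also deposited RPKM made from exon reads and exon length, a quantile-normalized signal that was not tested, and a score and p-value per comparison from Baggerley's test. The genome build was TAIR10, per the submitters' processing notes. No aligner, counter or counting strand is named in the sources used here. Of 293 columns 183 were not used. The TAIR10.1 annotation matched 32908 of 33208 features by identifier and 32907 also by start and end.

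Uniquely placed gene counts were filtered with filterByExpr (18212 features left), scaled by TMM and fitted with edgeR 4.0.16 in R 4.3.3 as 1 mean per group over all 12 libraries. The 5 contrasts were tested two-sided with the quasi-likelihood F test and Benjamini-Hochberg adjustment over all tested features at 0.05. Standard errors are approximate, taken as the log2 fold change over the square root of F. Depth per library is given with the results. Alternatives were RLE scaling, no filter, total or exon reads, DESeq2 1.42.0, limma 3.58.1 voom with sample weights, only the 2 groups compared, a replicate block, and each library left out in turn. The members and gene lists were chosen with earlier results of these data known. Genes named are the 8 members, MED25, all group VII factors, each gene of the other pathway lists called in any contrast or the one with the smallest p, and the 5 closest profiles to PCO1 and PCO2. Other members of those lists are named without levels. Where groups are said not to overlap, in any comparison, the share of all features separated in that way was not counted. The ratio of PCO2 to PCO1 reads and the naming of PI were added after the data were seen.

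For same-numbered libraries the correlations of deviations from group means were positive for every replicate number only between genotypes under hypoxia, at 0.490, 0.114 and 0.208. In the other comparisons they ran from -0.313 to 0.364, and the labels do not say what a number shares.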

Additional observations from a re-analysis of the deposited data

How the results depend on the processing

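Of 1909 values recomputed, 1785 kept their direction and side of the threshold, 46 lost it, 11 gained it, 60 changed sign and 7 counts of members moved. The count of members called for the genotypes under control conditions, 1, became 2 with limma voom, was 1 of 6 tested members with only the 2 groups compared, PRT6 in place of PCO1, and ran from 0 to 1 with libraries left out. Under hypoxia that count, 1, became 2 with DESeq2 and 3 with limma voom, and ran from 1 to 2 with libraries left out. The counts for hypoxia and for the interaction were the same in every alternative run. The share of PCO1 and PCO2 in med25-1 minus wild type ran from -5.16 to -3.37 points with libraries left out. The log2 ratio of the summed level between genotypes, -0.16, passed the threshold with CPM per kb of exon, at -0.24 (exact permutation, adjusted p = 0.035), and ran from -0.18 to -0.14 with libraries left out, passing without wild-type control replicates 1 or 3 or med25-1 control replicate 3 (adjusted p = 0.045, 0.035 and 0.025). With the replicate block, which is where pairing by number would enter, PCO2 between genotypes under hypoxia stood at -1.40, and no call of a named gene changed. All changes of sign concern differences that were not called. With limma voom these were PCO3 at -0.090 and RAP2.2 at 0.026 for hypoxia in wild type, and ATE2 at -0.0029 and PRT6 at -0.0071 in med25-1. Between genotypes under control conditions they were PCO5 at -0.027, ATE1 at 0.0038 and HRE2 at -0.23, and under hypoxia ATE1 at -0.00093. For the interaction they were ATE1 at -0.0047, ATE2 at -0.093 and PRT6 at -0.17. The replicate block gave PRT6 for hypoxia in wild type as -0.020, and no filter gave ATE2 for the interaction as -0.0070. With libraries left out, hypoxia in wild type ran from -0.088 to 0.13 for PCO3, -0.079 to 0.15 for ATE2, -0.088 to 0.17 for PRT6, -0.37 to 0.15 for RAP2.2 and -0.30 to 0.36 for HRE1. Hypoxia in med25-1 ran from -0.090 to 0.30 for PCO3, -0.29 to 0.034 for PCO5, -0.087 to 0.12 for ATE2 and -0.20 to 0.28 for PRT6. The genotypes under control conditions ran from -0.068 to 0.089 for PCO5, -0.12 to 0.040 for ATE1 and -0.13 to 0.0025 for RAP2.12, and under hypoxia from -0.086 to 0.24 for PCO5, -0.062 to 0.16 for ATE1 and -0.50 to 0.019 for RAP2.2. The interaction ran from -0.15 to 0.24 for PCO3, -0.11 to 0.22 for PCO5, -0.00082 to 0.22 for ATE1, -0.14 to 0.094 for ATE2, -0.21 to 0.27 for PRT6 and -0.36 to 0.16 for RAP2.2. The cause of these changes was not tested. Counts over all features also moved: 1181 for hypoxia in wild type became 2408 with only the 2 groups compared and 5461 with limma voom, and 961 in med25-1 became 175 and 1121, and 1926 with DESeq2. Those between genotypes went from 3115 to 5177 and 6774 under control conditions, and from 3933 to 1819 and 4188 under hypoxia. With libraries left out these 4 counts ran from 559 to 1933, 323 to 1841, 1285 to 5027 and 2214 to 5124. Depth limits PCO1 and PCO2 most in the control libraries, where no library had more than 7 reads of either.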
